A study of Mus musculus with 4 samples.

Results

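The PDZ-LIM family of actin-associated adaptor genes was followed in mammary tissue of mice with and without miR-21. Its members were taken by name from the deposited table, as *Pdlim1*, *Pdlim2*, *Pdlim3*, *Pdlim4*, *Pdlim5*, *Pdlim7* and *Ldb3*, and these 7 genes stood among 22483 loci with a gene name. Each had 1 row of its own, so no choice between rows was needed. Poly(A) RNA was sequenced from whole mammary tissue of 4 virgin mice aged 2 months, 2 of them miR-21 +/+ and 2 miR-21 -/-. The labels name no Cre transgene or tissue for the loss of miR-21, which they give as a property of the whole mouse. Mice of both genotypes were of mixed 129SV::FVB/N::C57BL/6 strain. The table gives 1 value per genotype, in FPKM, a read abundance corrected for exon length and library size, which combines the 2 mice. The spread between mice is not visible in it, the difference between genotypes has no replicate check, and no test was run.

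Proteins of this family carry a PDZ domain at their amino end and LIM zinc-finger domains at their carboxyl end. The PDZ domain holds alpha-actinin, the protein that crosslinks actin filaments in the Z-discs of striated muscle and in the stress fibres and dense bodies of other cells, and the LIM domains recruit kinases and other partners to it. *Pdlim1*, *Pdlim2*, *Pdlim3* and *Pdlim4* encode the ALP branch, with a single LIM domain each, while *Pdlim5*, *Pdlim7* and *Ldb3* encode the Enigma branch, whose longer forms carry several. In the mammary gland, actin bundles of this kind are best known from the contractile myoepithelial cells around ducts and alveoli and from the smooth muscle of vessels, and skeletal muscle lies close to the fat pad.

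The number of reads behind the values is unknown, because FPKM values carry no counts. Over the 9714 named loci above 5 FPKM in at least one genotype, the median log2 ratio of miR-21 -/- over miR-21 +/+ was -0.03, and the middle of the distribution was narrow, with quartiles at -0.16 and 0.09. Over all loci the sum of FPKM was 759295 for miR-21 +/+ against 1175603 for miR-21 -/-. The 54 loci without a gene name that were highest in miR-21 +/+ held 43.8% of the first sum and 64.8% of the second. Over loci with a gene name the sums went the other way, with 380567 FPKM for miR-21 +/+ and 355385 FPKM for miR-21 -/-. Scaling the columns to equal sums over all loci, which rests largely on those unnamed loci, lowers every log2 ratio by 0.63. For counts with that scaling, the limit of 5 FPKM was applied again to the scaled values. Then 19 named loci were at least 2-fold higher and 893 at least 2-fold lower in miR-21 -/-, against 121 and 144 as deposited. The median log2 ratio of the 9714 loci became -0.66. The deposited scaling was used, and each difference from the median locus holds under any scaling of a column. The locus that joins *Mir21* with its host gene *Vmp1* was at 42.5 FPKM with and 68.2 FPKM without miR-21, and since poly(A) RNA does not measure the mature microRNA it does not check the genotypes. Luminal keratins marked both tissues, with *Krt8* at 119 and 197 FPKM and *Krt18* at 148 and 216 FPKM, where the miR-21 +/+ value is given first, as in all pairs of values that follow.

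*Pdlim3* (ENSMUSG00000031636), whose protein ALP binds alpha-actinin at the Z-disc of skeletal and cardiac muscle and is also made in smooth muscle, differed most between the genotypes. It was at 11.5 FPKM in miR-21 +/+ glands, against 31.3 FPKM in those without the microRNA. The miR-21 -/- value was 19.8 FPKM and 2.71-fold higher, a log2 ratio of 1.44 that stood at 0.81 after scaling to equal sums. Only 43 of the 9714 loci had a higher log2 ratio. The study had picked *Pdlim3* from these same data among genes more than 2-fold higher in miR-21 -/-, so its place in the upper tail follows from that choice. In mm9 its locus runs from 46970821 to 47004908 on chromosome 8, and the annotation gives it 1 transcript on the plus strand, with 7 exons and a coding length of 948 bp.

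*Ldb3* (ENSMUSG00000021798, chromosome 14 from 35339827 to 35401880), which encodes the Z-disc protein Cypher or ZASP of striated muscle, came next. It was at 12.0 FPKM in miR-21 +/+ glands and 1.64-fold higher, at 19.7 FPKM, in those without the microRNA. Its log2 ratio was 0.71, above those of 97.3% of the named loci, and 0.08 after scaling to equal sums. The level of *Ldb3* in miR-21 +/+ glands was nearly that of *Pdlim3*, whose level divided by that of *Ldb3* was 0.963 there and 1.59 in miR-21 -/- glands.

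The other genes of the Enigma branch were the most abundant of the family in miR-21 +/+ glands. *Pdlim7* (chromosome 13 from 55598836 to 55614833) encodes Enigma, which ties tropomyosin and signalling receptors to actin, and it was at 25.2 and 30.2 FPKM. *Pdlim5* (chromosome 3 from 141902549 to 142058660) encodes ENH, an anchor for protein kinase C, and it was at 24.8 and 28.8 FPKM. Their log2 ratios were 0.26 and 0.21 as deposited, but -0.37 and -0.42 after scaling to equal sums, so that their direction rests on the scaling. Both lay above the median locus, by 0.29 and 0.24.

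The remaining genes of the ALP branch differed less from the median locus, apart from *Pdlim4*. *Pdlim1* (chromosome 19 from 40295717 to 40346106) encodes CLP36, which joins alpha-actinin to stress fibres in many cell types, and it was at 20.7 and 23.0 FPKM. *Pdlim4* (chromosome 11 from 53868395 to 53882519) encodes RIL, another alpha-actinin binder of stress fibres, and was at 11.4 and 14.1 FPKM. Their log2 ratios of 0.15 and 0.32 became -0.48 and -0.32 under equal sums. *Pdlim2* (chromosome 14 from 70563793 to 70577479) encodes Mystique, also known as a ubiquitin ligase for nuclear NF-kappaB and STAT proteins. It had the lowest level of the family in both genotypes, at 8.62 and 8.28 FPKM, and was the only member that was lower in miR-21 -/-, by a log2 ratio of -0.06 that turned to 0.04 when the named loci alone were scaled to equal sums.

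**Figure D1:**
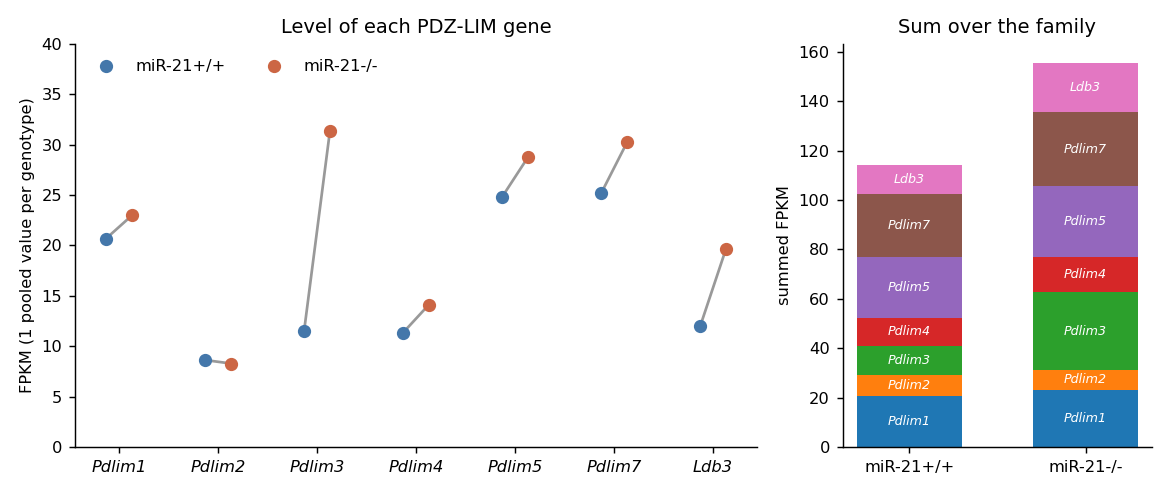
FPKM of each PDZ-LIM gene (left) and the summed FPKM of the family (right), with 1 pooled value per genotype and no error. *Pdlim3* moved from 11.5 to 31.3 FPKM and *Ldb3* from 12.0 to 19.7 FPKM, while the points of the other genes lie close together, and after scaling to equal sums only *Pdlim3* and *Ldb3* kept a log2 ratio above 0.

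FPKM is a value per length, so the order of the levels can be read between genes, although no spread is available to say which neighbours in it differ. In miR-21 +/+ glands the order from high to low was *Pdlim7*, *Pdlim5*, *Pdlim1*, *Ldb3*, *Pdlim3*, *Pdlim4* and *Pdlim2*. In miR-21 -/- glands *Pdlim3* moved from rank 5 to rank 1, just above *Pdlim7* by a quotient of 1.04, and the other 6 genes kept their order among themselves. Scaling a column cannot change this order. *Pdlim3* made up 10.1% of the family's summed FPKM with miR-21 and 20.2% of it without.

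The family's sum was 114 FPKM with miR-21 and 155 FPKM without it, or 100.3 FPKM in the latter after scaling to equal sums. Of the difference of 41.1 FPKM as deposited, *Pdlim3* gave 48.1% and *Ldb3* 18.6%. Without *Pdlim3* the sums were 103 and 124 FPKM, a log2 ratio of 0.27, and without both genes they were 90.7 and 104 FPKM, a log2 ratio of 0.20. The ALP branch summed to 52.2 and 76.7 FPKM and the Enigma branch to 62.0 and 78.6 FPKM, so that the branches stood nearly level in miR-21 -/- glands.

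All 7 genes were above 5 FPKM in both genotypes, so none entered through the genotype in which it was higher. As deposited, 6 of the 7 were higher in miR-21 -/-, against 43.1% of the 9714 named loci, and after scaling to equal sums 2 of 7 were, against 3.45% of the same loci. At 2-fold or more, 1 of 7 was higher, namely *Pdlim3*, where the share of all named loci was 1.25%, and 0 of 7 were lower, where that share was 1.48%. Since the study picked *Pdlim3* from these data at this fold, its count here was fixed in advance. At 1.5-fold or more, 2 of 7 were higher, *Pdlim3* and *Ldb3*, beside 3.85% of all named loci, and 0 of 7 were lower, beside 4.33%. The median log2 ratio of the family was 0.26, and 0.29 above that of all named loci.

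**Figure D2:**
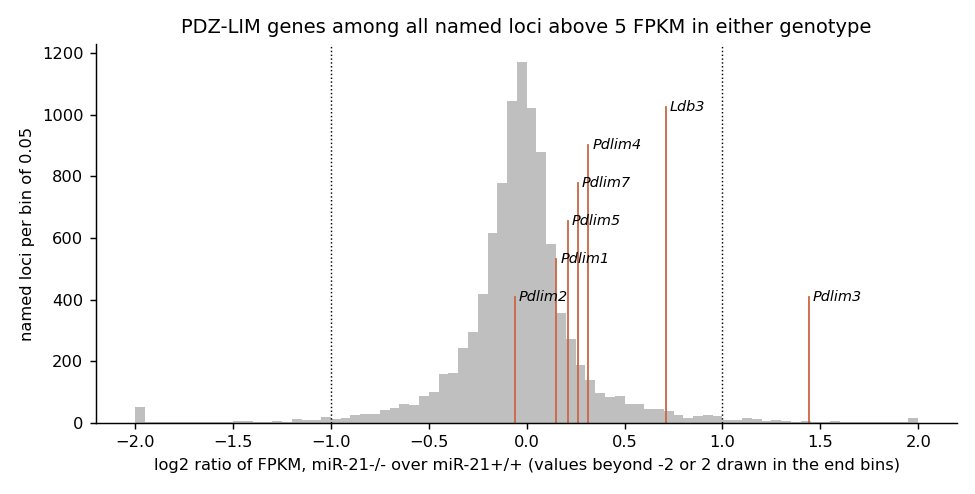
Histogram of the log2 ratio of FPKM, miR-21 -/- over miR-21 +/+, for the 9714 named loci above 5 FPKM in either genotype, with the PDZ-LIM genes as orange lines whose heights carry no meaning and dotted lines at 2-fold. *Pdlim3* lies at 1.44 and *Ldb3* at 0.71 in the upper tail, and the others lie between -0.06 and 0.32; equal sums would move every value 0.63 to the left.

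The genes around the family in the actin and Z-disc machinery were taken from lists written from general knowledge. As deposited, all 4 alpha-actinins were higher in miR-21 -/-, beside 43.1% of the named loci above 5 FPKM. After scaling to equal sums only *Actn2* and *Actn3* were, beside 3.45% of those loci, and the median of the 4 was -0.08. The sarcomeric forms stood apart from the others. *Actn2*, made in heart and skeletal fibres, was at 0.942 and 2.18 FPKM, a log2 ratio of 1.21 that rests on a low miR-21 +/+ value, and *Actn3*, the form of fast fibres, was at 53.0 and 99.8 FPKM, a log2 ratio of 0.91. The non-muscle forms *Actn1* and *Actn4* had log2 ratios of 0.10 and 0.19.

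Linker proteins of the Z-disc and myofibril differed in the same direction. Of 17 such genes, 14 were above 1 FPKM in a genotype, 2 of them, *Csrp3* and *Synpo2l*, in miR-21 -/- alone. The 12 above 1 FPKM in both were higher in miR-21 -/- as deposited, 6 of them by 1.5-fold or more. Among the named loci above 5 FPKM, 43.1% were higher and 3.85% were so by 1.5-fold or more. The median log2 ratio of the linker genes was 0.60 with or without the other 2 genes. Over the 14 it became -0.03 under equal sums. *Tcap*, which caps titin at the Z-disc, was at 16.2 and 26.9 FPKM, and *Myot*, a partner of alpha-actinin and filamin, was at 4.42 and 7.98 FPKM. The log2 ratio of *Myot* was 0.85 and the highest of the 12, while the lowest was 0.27 for *Nebl*. *Csrp3*, the muscle LIM protein, was at 0.633 and 1.26 FPKM. A list of 16 described binding partners shares 5 genes of this kind and was more mixed, with 9 of the 15 above 1 FPKM higher. *Tpm2*, a tropomyosin bound by Enigma, was at 101 and 180 FPKM, whereas *Stat4*, a substrate of the *Pdlim2* product in T cells, was at 1.42 and 0.510 FPKM.

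Focal adhesion and stress fibre genes lay nearer to the median locus. As deposited, 13 of 18 were higher in miR-21 -/-, beside 43.1% of the named loci above 5 FPKM. By 1.5-fold or more 0 of them were higher, beside 3.85% of those loci. The median log2 ratio was 0.11, or -0.52 under equal sums. *Zyx*, which marks stress fibres under tension, was at 53.0 and 52.7 FPKM, and *Vcl*, the vinculin of focal adhesions, had the highest value at 0.34. Among 37 other LIM-domain genes above 1 FPKM, the median was 0.12. *Csrp1*, a LIM protein of smooth muscle, was at 118 and 189 FPKM, a log2 ratio of 0.68. The other genes that encode both a PDZ and a LIM domain, *Limk1*, *Limk2* and *Lmo7*, had log2 ratios of -0.25, 0.18 and 0.17. None of the genes in these lists above 1 FPKM had a log2 ratio as high as that of *Pdlim3*. The study had picked *Pdlim3* from these data for a fold above 2, so this comparison was partly fixed in advance. Below 1 FPKM, *Myoz2* at 0.104 and 0.556 FPKM and *Ankrd2* at 0.109 and 0.470 FPKM had higher log2 ratios.

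**Figure D3:**
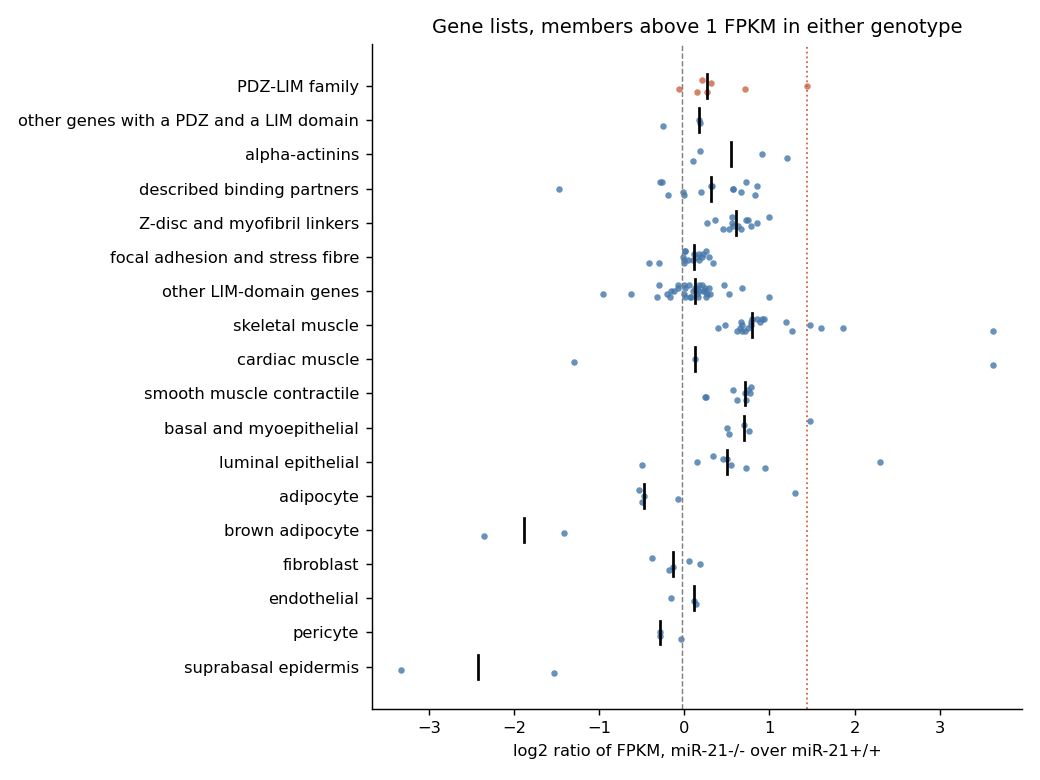
Log2 ratios of FPKM, miR-21 -/- over miR-21 +/+, for genes above 1 FPKM in either genotype (points) in each gene list shown and the list's median (black bars); the dashed line is the median of all named loci above 5 FPKM and the dotted line is *Pdlim3*. Skeletal muscle, smooth muscle and basal genes lie to the right of the dashed line, with medians of 0.79, 0.71 and 0.70, as does the family at 0.26; under equal sums every point moves 0.63 to the left and the family's median to -0.37.

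Markers of muscle and of myoepithelium, which are known to make genes of this family, were higher together with *Pdlim3* and *Ldb3*. They were not alone in this, as the luminal epithelial list had a median log2 ratio of 0.50. In the tissue RNA, more cells of a type and more RNA per cell cannot be told apart. The sum over skeletal muscle genes was 1793 FPKM with miR-21 and 2951 FPKM without it. Of 23 genes listed, 22 were above 1 FPKM in a genotype, 2 of them, *Tnnt1* and a locus that merges *Myh7* with *Myh6*, in miR-21 -/- alone. The 20 above 1 FPKM in both were higher in miR-21 -/- as deposited, 18 of them by 1.5-fold or more and 4 by 2-fold. Of the named loci above 5 FPKM, 43.1% were higher, 3.85% by 1.5-fold or more and 1.25% by 2-fold or more. The median log2 ratio was 0.79 over the 20 as over the 22, and 0.16 over the 22 under equal sums. No marker of the list was at 0, and the lowest was the slow troponin *Tnni1* at 0.0948 and 0.891 FPKM. The log2 ratio of *Pdlim3* exceeded this median by 0.65, while that of *Ldb3* lay 0.08 below it.

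Of the skeletal muscle genes above 1 FPKM in both genotypes, 2 had a higher log2 ratio than *Pdlim3*. *Mb*, the myoglobin of oxidative fibres, was at 2.07 and 7.54 FPKM, and *Myh1*, a fast myosin heavy chain, was at 8.44 and 23.4 FPKM. *Tnnt1*, the slow troponin T, was at 0.822 and 2.49 FPKM, and the merged locus of *Myh7* and *Myh6*, whose reads cannot be assigned to either gene, was at 0.120 and 1.48 FPKM. Of the cardiac markers *Actc1*, the cardiac actin, was at 6.59 and 2.68 FPKM. A locus that merges *Tnni3* with *6030429G01Rik* was at 3.07 and 3.35 FPKM, and *Tnnt2* was at 0.118 and 0.242 FPKM. Markers of the heart's atria were near 0, with *Myl7* at 0.0324 and 0.0320 FPKM and *Nppa* at 0.0469 and 0.152 FPKM.

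Smooth muscle and myoepithelial genes were higher as well. Of 10 smooth muscle contractile genes, the 9 above 1 FPKM were all higher in miR-21 -/-, 6 by 1.5-fold or more. Among the named loci above 5 FPKM these shares were 43.1% and 3.85%. The smooth muscle median log2 ratio was 0.71, or 0.08 under equal sums. The list summed to 429 and 672 FPKM, and its lowest gene was *Myocd*, at 0.112 and 0.0899 FPKM. *Myh11*, the smooth muscle myosin, was at 26.7 and 45.5 FPKM and *Tagln*, an actin-binding protein of contractile cells, at 90.1 and 156 FPKM. All 5 basal and myoepithelial markers were higher in miR-21 -/-, with sums of 87.8 and 156 FPKM and a median of 0.70, or 0.06 under equal sums. *Oxtr*, the oxytocin receptor through which myoepithelial cells contract, was at 17.5 and 48.7 FPKM. Its log2 ratio of 1.47 was the only one of these that exceeded that of *Pdlim3*. *Krt14* was read from a locus merged with *Krt16*, at 22.9 and 38.7 FPKM, whose reads cannot be assigned to either gene. The part of muscle or myoepithelial content in the values of *Pdlim3* and *Ldb3* was not tested.

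Dividing by another gene of the same column removes any scaling. The genes divided by were chosen after their values were seen. Divided by the skeletal actin *Acta1*, *Ldb3* was 0.0366 with miR-21 and 0.0374 without it, and *Pdlim3* was 0.0352 and 0.0596. Divided by *Myh11*, *Ldb3* was 0.449 and 0.432 and *Pdlim3* was 0.432 and 0.689. *Pdlim3* divided by *Oxtr* was 0.658 and 0.644, a log2 change of -0.03, and its quotient with *Actn2* was 12.3 and 14.4, a log2 change of 0.23. The same change for *Ldb3* depended on the divisor, with -0.76 against *Oxtr*, -0.50 against *Actn2*, -0.20 against *Actn3*, 0.52 against *Actn4* and 0.61 against *Actn1*.

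**Figure D4:**
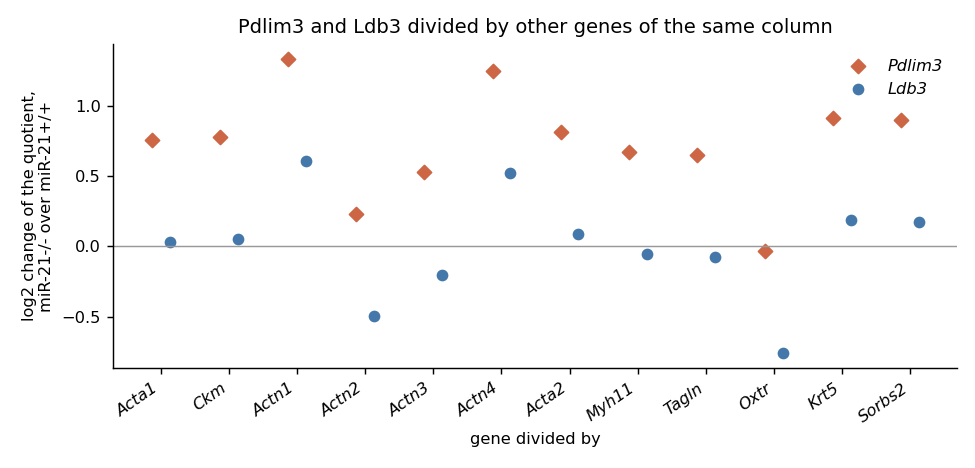
Log2 change, miR-21 -/- over miR-21 +/+, of the quotient of *Pdlim3* (orange diamonds) or *Ldb3* (blue circles) with each gene named on the horizontal axis, from 1 pooled value per genotype. Over all these divisors *Ldb3* runs from -0.76 against *Oxtr* to 0.61 against *Actn1*, and *Pdlim3* from -0.03 to 1.34 against the same genes. Against *Acta1*, *Ckm*, *Acta2*, *Myh11* and *Tagln*, a group formed after the values were seen, *Ldb3* lies between -0.08 and 0.09 and *Pdlim3* between 0.65 and 0.82. Against *Actn2*, *Actn3* and *Krt5*, *Ldb3* lies at -0.50, -0.20 and 0.19 and *Pdlim3* at 0.23, 0.53 and 0.92.

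The surroundings of the genes in the genome were examined next, and no other locus of the table overlapped a member. Within 500 kb of *Pdlim3*, 5 named loci were above 5 FPKM in a genotype. Of these, 0 changed by 2-fold or more in either direction, beside 1.25% higher and 1.48% lower among all named loci. So few loci can hardly show a difference from those shares. The median log2 ratio of the 5 loci was -0.01. The highest was that of *Sorbs2*, the nearest named locus upstream, at 8.47 and 12.3 FPKM, a log2 ratio of 0.54. On the other side *Ccdc110*, at a distance of 15094 bp, was listed at 0 and at 0.0147 FPKM. Around *Ldb3*, the median of 7 such loci was 0.01, and 1 of them changed by 2-fold or more, *Fam25c* at 31.7 and 8.50 FPKM, a log2 ratio of -1.90. The nearest named loci on either side were *Bmpr1a*, a BMP receptor at 21.7 and 26.3 FPKM, and the photopigment gene *Opn4*, listed at 0 and at 0.0161 FPKM. None of the 5 loci around *Pdlim3* had a log2 ratio above 0.54.

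Some members of the ALP branch had genes of another family as neighbours. The *Sorbs* genes encode SoHo and SH3 domain adaptors that bind vinculin and actin, and *Sorbs3* and *Sorbs2* lay next to *Pdlim2* and *Pdlim3*. Both pairs lie on a single strand, with the *Sorbs* gene upstream, at gaps of 2794 and 57503 bp. *Sorbs3*, encoding vinexin, was at 18.0 and 19.1 FPKM. The log2 ratios of *Sorbs3* and *Sorbs2* were 0.08 and 0.54, and those of *Pdlim2* and *Pdlim3* beside them were -0.06 and 1.44, of which *Sorbs3* and *Sorbs2* fell below 0 under equal sums. *Pdlim3* divided by *Sorbs2* was 1.36 and 2.55.

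**Figure D5:**
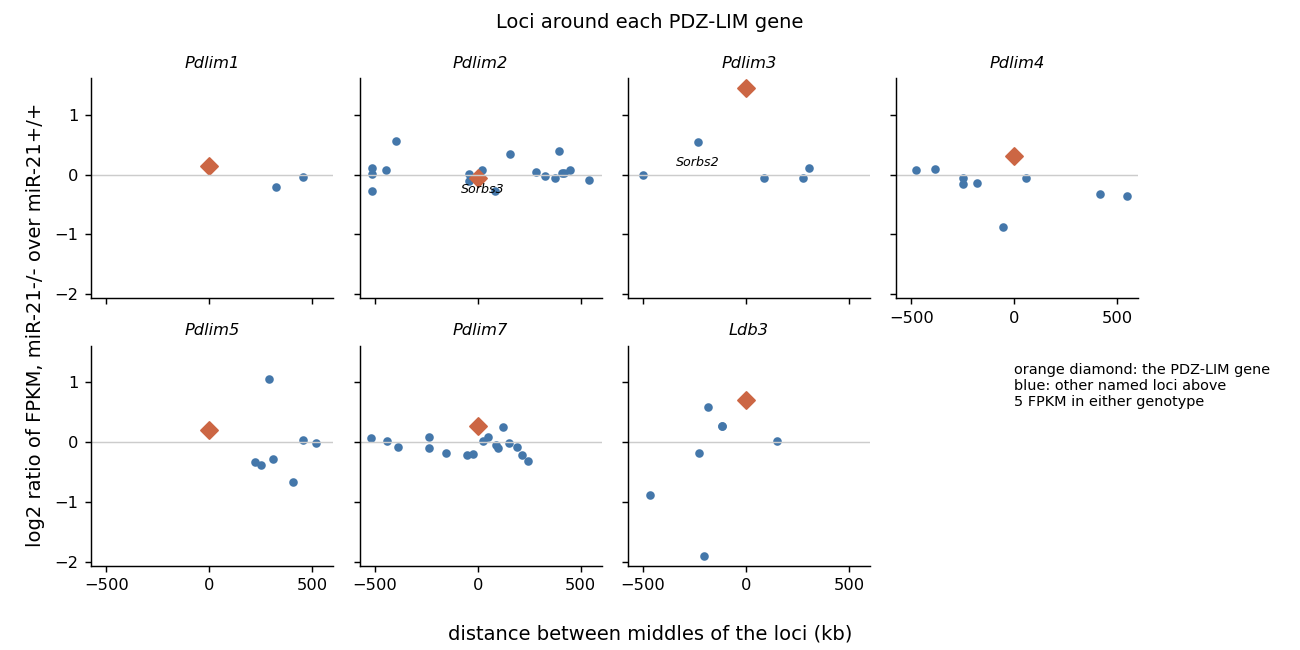
Log2 ratio of FPKM, miR-21 -/- over miR-21 +/+, of named loci above 5 FPKM in either genotype (blue) against the distance in kb between the middle of each and that of the PDZ-LIM gene (orange diamond), for the loci drawn within 500 kb. *Pdlim3* at 1.44 lies above all 5 of its neighbours, whose highest is *Sorbs2* at 0.54, and equal sums would lower every point by 0.63, to 0.81 for *Pdlim3* and below 0 for *Sorbs2*.

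*Pdlim3* was of interest in the study as a candidate target of miR-21. The study drew its candidates from genes more than 2-fold higher in miR-21 -/- in these same data that were also predicted targets. The mature microRNA and the stretch of *Pdlim3* that the study's target prediction aligned with it are shown to let their pairing be read. Capitals mark the seed, bases 2 to 8, in the microRNA, which is taken from RefSeq (GRCm38.p6), and in the *Pdlim3* stretch they mark the part that was aligned.
mmu-miR-21a-5p: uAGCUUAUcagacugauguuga
*Pdlim3*: ugAGUAGCAUGUCAGAUAAGACUu
The *Pdlim3* stretch of 24 bases was found once in the gene, at chr8:46987777-46987800 of mm9, plus strand. It lies in intron 3 of 7909 bp, 1863 bp after exon 3 and 6022 bp before the next exon of the annotated transcript. The annotation used holds 1 *Pdlim3* transcript, and whether the stretch is part of an exon in a transcript it lacks was not tested. In the study's alignment all 7 seed bases are paired, but the *Pdlim3* side has 1 extra base between those that pair with bases 3 and 4 of the microRNA. An unbroken match to the seed would read ATAAGCT on the DNA of the target, and neither these letters nor TAAGCT are in the stretch.

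The longest annotated 3′ UTR of each member was then searched for these letters on the transcribed strand. The UTRs were 221 bases long in *Pdlim4*, 344 in *Pdlim1*, 398 in *Pdlim2*, 532 in *Pdlim3*, 1172 in *Pdlim7*, 2076 in *Pdlim5* and 2761 in *Ldb3*. None of the 7 held TAAGCT, the match to bases 2 to 7, and thus none held a longer seed match, which would contain it. Among 9796 genes with an annotated 3′ UTR that lay in loci above 5 FPKM, 23.9% held TAAGCT and 6.61% held ATAAGCT. The lack of these letters says nothing of other kinds of pairing.

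Promoter windows of RefSeq, from 250 bases before to 50 bases after a start site in GRCm38.p6, were found for 6 of the 7 genes, 8 windows in all, and not for *Pdlim2*. They were searched on both strands for the CArG box of serum response factor, the MEF2 box, the E-box CANNTG and the STAT motif TTCNNNGAA. After they had been read, the cAMP response element TGACGTCA and the AP-1 site TGAGTCA were added. Windows of the genes with the highest log2 ratios are shown, *Pdlim3* at chr8:45885237-45885536 (plus strand, TGACGTCA in capitals) and the first of *Ldb3* at chr14:34588632-34588931 (minus strand, CArG box in capitals).
*Pdlim3*: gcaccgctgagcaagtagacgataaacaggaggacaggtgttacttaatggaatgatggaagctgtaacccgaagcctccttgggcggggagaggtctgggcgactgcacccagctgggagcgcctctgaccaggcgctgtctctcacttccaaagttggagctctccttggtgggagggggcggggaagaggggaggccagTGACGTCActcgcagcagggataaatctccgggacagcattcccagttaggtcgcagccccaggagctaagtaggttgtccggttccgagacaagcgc
*Ldb3*: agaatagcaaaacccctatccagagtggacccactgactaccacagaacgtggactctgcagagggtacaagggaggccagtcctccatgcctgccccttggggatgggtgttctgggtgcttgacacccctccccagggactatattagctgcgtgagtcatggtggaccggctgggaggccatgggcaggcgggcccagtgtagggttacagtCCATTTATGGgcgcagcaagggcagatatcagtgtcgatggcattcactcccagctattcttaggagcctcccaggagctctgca
In the *Pdlim3* window TGACGTCA starts 48 bases before the start site, and 1.79% of 32851 windows held these letters. The window of *Pdlim3* also had 2 E-boxes, CAGGTG and CAGCTG. At least 1 E-box was in 2 of the 8 windows, of *Pdlim3* and *Pdlim5*, beside 72.3% of all windows. Both overlapping windows of *Ldb3* held the same CArG box, CCATTTATGG, which starts 35 bases before the start site of the first, and the same TGAGTCA. These were in 1.63% and 5.20% of all windows. The MEF2 box and TTCNNNGAA were in 0 of the 8 windows and in 3.19% and 8.30% of all. None of the motifs searched overlapped another in these windows. A match in letters is not a bound site, and no binding was measured.

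The loci most like *Pdlim3* were sought as those nearest to it when the log2 FPKM of each genotype is an axis. With a value per genotype the likeness rests on 2 points for each of 18172 other named loci, and nothing follows from it on shared control. The nearest were *Lbp*, a binder of lipopolysaccharide at 11.9 and 32.0 FPKM, and *Mfap4*, a protein of elastic fibres at 12.6 and 30.8 FPKM. *Lbp* was another of the study's candidate targets, picked from these data in the same way as *Pdlim3*. *Il4ra*, a cytokine receptor chain, was at 10.4 and 28.2 FPKM, *Ctgf*, a matricellular growth factor, at 11.7 and 26.9 FPKM, and *C230081A13Rik* at 13.1 and 28.4 FPKM. Their distances from *Pdlim3* ran from 0.055 to 0.226 log2 units.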

How the data were processed

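Whole mammary tissue of 4 mice was profiled, 2 per genotype. The authors aligned single-end TruSeq reads to mm9 with TopHat, estimated FPKM with Cufflinks and deposited a Cuffdiff table of 30506 loci with 1 FPKM value per genotype. Versions, annotation and scaling options are not given in the sources used here. The submitters' processing notes also name CASAVA. The table's columns of fold change, test statistic, p-value, q-value, significance and test status hold the authors' own comparison and were not used.

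The row of a gene was the one with the highest mean FPKM. Plain log2 ratios were computed without a pseudocount, and loci above 5 FPKM in at least one genotype formed the background. With 1 value per genotype no test was made, and the model planned for a column per mouse was not run. Locus starts were counted from 1, as 8351 of them matched annotated gene starts after adding 1 and 487 as printed. Transcripts came from the GENCODE annotation of mm9, where 126 loci lay on sequences absent from the genome used and none ended beyond its chromosome. The UTRs were counted after the stop codon. Protein identity was not analysed here, and a locus beside a member and a list of markers are not reported or drawn here. The ratio and motif steps were tested on simulated data.

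The members, the lists and the tests were chosen with earlier results of these data known. Named genes are the 7 members, list members (for list medians, those above 1 FPKM), the 5 loci nearest to *Pdlim3* and the nearest named locus on each side of a member, and *Sorbs2* and the other genes used as divisors follow from these. Alternatives were pseudocounts of 1 and 0.1, 3 scalings, other FPKM minimums and summed rows. *Fam25c* was named after its value was seen. Python 3.11.15 with numpy 2.4.6, pandas 2.3.3, pysam 0.24.0 and matplotlib 3.10.9 and samtools 1.23.1 were used.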

Additional observations from a re-analysis of the deposited data

How the results depend on the processing

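No paired analysis was possible because both mice of a genotype share 1 FPKM value, and leaving out each mouse in turn was not run for the same reason. Read depth is unknown, which limits what can be said of low values. A member's log2 ratio was said to move when it changed by 0.1 or more. That happened only with both columns scaled to equal sums over all loci, where the log2 ratios were 0.81 for *Pdlim3*, 0.082 for *Ldb3*, -0.32 for *Pdlim4*, -0.37 for *Pdlim7*, -0.42 for *Pdlim5*, -0.48 for *Pdlim1* and -0.69 for *Pdlim2*. The family then summed to 100.3 FPKM in miR-21 -/-, with 0 members at least 2-fold higher, 1 at least 1.5-fold higher and 1 at least 1.5-fold lower. This follows from the shift of -0.63 that the scaling gives every locus. With equal sums over named loci, the median ratio, a pseudocount of 1 or 0.1, or all rows of a name summed, none of the 7 ratios moved. Only the pseudocounts could have moved them. Each member had 1 row, and equal sums over named loci and the median ratio shift every locus by 0.099 and 0.029, below the limit of 0.1. Under these settings only the ratio of *Pdlim2* changed sign, to 0.04 with equal sums over named loci. With equal sums over all loci the ratios of 4 members changed sign.

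Of all named loci, 121 were at least 2-fold higher and 144 lower as deposited. Without an FPKM minimum these were 865 and 918, above 1 FPKM 283 and 347, above 5 FPKM in both genotypes 58 and 58. With equal sums over all loci they were 19 and 893, where the limit of 5 FPKM was applied after scaling. At 1.5-fold, 374 and 421 as deposited became 1754 and 1921, 750 and 864, 237 and 274, and 51 and 6463. For the alpha-actinins the median of 0.55 fell to 0.19 when only members above 5 FPKM were kept, which leaves out *Actn2*, and that of the binding partners went from 0.31 to 0.19. The cardiac median of 0.13 became -1.30 with that minimum, since *Actc1* alone was left. Keeping only genes above 1 FPKM in both genotypes, a choice made after seeing the data, gave 0.19 for the alpha-actinins and -0.58 for the cardiac list.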

Other observations

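Lists of other cell types were mixed as deposited, some differing in the opposite direction from *Pdlim3* and *Ldb3* and others, such as the luminal list, in the same direction. Brown adipocyte markers were lower in miR-21 -/- glands, with *Ucp1*, the uncoupling protein of thermogenesis, at 43.3 and 8.48 FPKM with and without miR-21. The epidermal keratin *Krt10* was at 5.70 and 1.98 FPKM. The fibroblast, endothelial and pericyte medians were -0.13, 0.11 and -0.29, and the adipocyte median was -0.48, with *Lep*, the leptin gene, against it at 27.7 and 67.9 FPKM. Of the luminal markers 8 of 9 were higher, beside 43.1% of the named loci above 5 FPKM. The luminal median of 0.50 became -0.13 under equal sums. Among these markers *Pgr*, the progesterone receptor, was at 4.71 and 23.3 FPKM and *Esr1*, the oestrogen receptor, at 17.7 and 12.5 FPKM.

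Among the other LIM-domain genes, the lowest log2 ratios of those above 5 FPKM were those of *Limd2*, at 12.5 and 6.46 FPKM, and of *Mical2*, an actin-oxidizing enzyme, at 14.6 and 9.45 FPKM. The part of cell content in these values was not tested.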
